A study of Mus musculus with 32 samples.

Results

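A set of 10 imprinted genes that act on growth was followed in mouse quadriceps muscle: H19, Igf2, Dlk1, Meg3, Rian, Cdkn1c, Peg3, Mest, Plagl1 and Grb10. They were chosen by gene name, and their TPM values (an abundance scaled for transcript length and for the library's total) were summed per gene ID in each table. These 10 genes are 10 of 53801 gene IDs in the tables. Of the 10, 9 passed the filter of at least 1 TPM in at least 4 libraries, as did 12817 genes in all; Dlk1 did not pass and was tested on its own. The 32 libraries came from 32 mice in 8 groups of 4. Mice were wild type (WT) or Col6a2-/-, aged 5 or 25 weeks, and female or male. The knockout allele, Col6a2tm1(KOMP)Vlcg, removes an alpha chain of collagen VI, which forms microfibrils in the matrix around muscle fibres. Per the labels it was made in C57BL/6N, crossed for 5 generations to C57BL/6J and kept by mating heterozygotes. The whole muscle was profiled, so fewer cells of a type and less RNA per cell cannot be told apart.

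An imprinted gene is transcribed mainly from the copy inherited from one parent, and which copy is set by DNA methylation laid down in the egg or the sperm. Many imprinted genes act on fetal growth, paternally expressed ones often as promoters and maternally expressed ones often as brakes, and many are turned down after birth as growth slows. In muscle several of them are also known from satellite cells and regenerating fibres. TPM per gene does not separate the parental copies, so the allele of origin was not measured here. H19, Meg3, Rian, Cdkn1c and Grb10 are known as maternally expressed in most tissues, and Igf2, Dlk1, Peg3, Mest and Plagl1 as paternally expressed.

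The genes lie in 7 imprinted regions on GRCm38. On chromosome 7, H19 (ENSMUSG00000000031, lincRNA, 142575529 to 142578143) and Igf2 (ENSMUSG00000048583, protein coding, 142650766 to 142666816) are 72.6 kilobases apart, and Cdkn1c (ENSMUSG00000037664, protein coding, 143458339 to 143461050) is 791.5 kilobases further on. Peg3 (ENSMUSG00000002265, protein coding, 6703892 to 6730431) lies far from them on the same chromosome. On chromosome 12, Dlk1 (ENSMUSG00000040856, protein coding, 109452823 to 109463336) is followed by the noncoding genes Meg3 (ENSMUSG00000021268, lincRNA, 109541001 to 109571726) and Rian (ENSMUSG00000097451, processed transcript, 109603940 to 109661716). Mest (ENSMUSG00000051855, protein coding) lies on chromosome 6 at 30723547 to 30748465, Plagl1 (ENSMUSG00000019817, protein coding) on chromosome 10 at 13060504 to 13131694, and Grb10 (ENSMUSG00000020176, protein coding) on chromosome 11 at 11930508 to 12038683. Mest overlaps Copg2 on the other strand, which reached 8.39 TPM; whether the authors counted by strand is not given in the sources used here, so reads of Mest and Copg2 may not be fully separated. Genes that overlap the other members did not exceed 0.418 TPM, apart from small RNA genes within Meg3 (up to 1.68 TPM) and Rian (up to 8.31 TPM).

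Of the members, 5 are hosts of microRNAs. RefSeq (GRCm38.p6) lists 15 mature microRNAs of 8 microRNA genes inside H19, Igf2, Meg3, Rian and Mest, on the strand of the host. A selection of 10 is shown, and the hosts of all 15 carry the decline described below. Capitals mark the seed, bases 2 to 8. The 15 microRNAs have 15 different seeds, so no pair of them shares one. Mir675 lies in H19, Mir483 in Igf2, Mir335 in Mest, Mir770 in Meg3 and Mir370 in Rian. These libraries were not made for small RNA, and the microRNA genes themselves had under 2 TPM in any library, so the values below are those of the host transcripts.
mmu-miR-675-5p: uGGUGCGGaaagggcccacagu
mmu-miR-675-3p: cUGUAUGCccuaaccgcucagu
mmu-miR-483-5p: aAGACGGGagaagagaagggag
mmu-miR-483-3p: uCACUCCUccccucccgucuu
mmu-miR-335-5p: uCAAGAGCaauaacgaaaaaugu
mmu-miR-335-3p: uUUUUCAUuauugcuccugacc
mmu-miR-770-5p: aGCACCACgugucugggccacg
mmu-miR-770-3p: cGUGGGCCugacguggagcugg
mmu-miR-370-5p: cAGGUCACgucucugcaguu
mmu-miR-370-3p: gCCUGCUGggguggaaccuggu

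The RefSeq promoter table held 15 windows for 8 of the 10 members, with none for H19 or Cdkn1c, and the 250 bases before each start were searched on both strands for 5 motifs. The cAMP response element TGACGTCA occurred in the first Meg3 window and the Peg3 window, and in 1.55% of all 32851 windows of that length. GGGGCCCC, the palindrome bound by the zinc finger protein that Plagl1 encodes, occurred in the Peg3 window and in 0.889% of all windows. The GC box GGGCGG occurred in 7 of the 15 windows (of Grb10, Igf2, Mest and Plagl1) and in 32.7% of all windows. The TATA box TATAAA occurred in the first Meg3 window (12.4% of all windows), and the E-box CAGCTG in 1 Mest window (13%). The motifs were picked with these sequences in view, and a match is a description of letters, not of a bound site. The windows of 4 members that hold these matches are printed 5′ to 3′ for Meg3 (chr12:109540746-109540995, plus strand), Peg3 (chr7:6730420-6730669, minus strand), Mest (chr6:30737800-30738049, plus strand) and Igf2 (chr7:142657497-142657746, minus strand). Capitals mark TGACGTCA, GGGGCCCC, GGGCGG and TATAAA on either strand; in Meg3 the TATA matches of the 2 strands overlap.
Meg3: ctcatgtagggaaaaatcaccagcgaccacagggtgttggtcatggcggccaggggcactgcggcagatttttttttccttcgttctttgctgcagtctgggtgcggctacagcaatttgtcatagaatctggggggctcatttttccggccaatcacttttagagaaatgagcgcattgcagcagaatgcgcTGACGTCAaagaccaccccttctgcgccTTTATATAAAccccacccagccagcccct
Peg3: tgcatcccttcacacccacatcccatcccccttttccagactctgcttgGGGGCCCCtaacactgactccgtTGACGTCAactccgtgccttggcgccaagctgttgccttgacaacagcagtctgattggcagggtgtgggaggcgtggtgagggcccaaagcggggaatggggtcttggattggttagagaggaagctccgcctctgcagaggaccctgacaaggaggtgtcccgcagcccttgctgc
Mest: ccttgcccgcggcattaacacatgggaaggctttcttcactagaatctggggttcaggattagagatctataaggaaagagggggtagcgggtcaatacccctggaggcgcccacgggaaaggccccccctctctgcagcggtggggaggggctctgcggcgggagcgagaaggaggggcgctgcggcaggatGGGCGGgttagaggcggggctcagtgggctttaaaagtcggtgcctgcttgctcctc
Igf2: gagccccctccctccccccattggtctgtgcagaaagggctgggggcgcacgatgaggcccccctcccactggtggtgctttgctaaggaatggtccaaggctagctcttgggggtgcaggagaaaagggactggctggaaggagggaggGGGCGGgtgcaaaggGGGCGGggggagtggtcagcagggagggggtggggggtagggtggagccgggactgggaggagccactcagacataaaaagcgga

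Col6a2 had 6.60 to 51.2 TPM in the 16 WT libraries and at most 0.171 TPM in the 16 Col6a2-/- libraries, and Xist and Ddx3y matched the labelled sex in all 32. The labelled tissue also held: the summed level of 12 skeletal muscle genes was 37300 to 66090 TPM at 5 weeks. At 5 weeks 2 Col6a2-/- female libraries stood apart. Female 4 was the lowest of the 8 Col6a2-/- libraries of that age in 9 of the 10 members and in 51.5% of all tested genes, and female 2 was the highest in 6 of 10 and in 48.9%. The share of calls that were higher or lower over all genes moved with the scaling. Among the genes called in Col6a2-/- at 5 weeks, 91.6% were higher than WT on TPM, 52.3% with median-of-ratios scaling and 45.8% with quantile normalization. With age, 22.6% of calls in WT and 15.8% in Col6a2-/- were higher at 25 weeks on TPM, against 46.7% and 47.6% with median-of-ratios scaling. At 25 weeks, 95% of genotype calls were higher on TPM and 58.5% with median-of-ratios scaling. Of calls between the sexes, 92.2% were higher in males at 5 weeks and 26.5% at 25 weeks, against 69.7% and 55.5% with that scaling, and 7.05% of age-by-sex calls were higher, against 30.5%. The members' changes are therefore also given relative to the median change of all 12817 genes. All limma tests below used log2(TPM + 1) in 1 fit over the 32 libraries and were two-sided. A gene is said to be called at a Benjamini-Hochberg adjusted p under 0.05, and changes on this scale understate those of genes with low TPM. The labels do not say which mice were littermates, and p-values measure the spread between the mice of a group.

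H19, Igf2, Meg3, Rian, Cdkn1c, Peg3, Mest and Grb10 fell between 5 and 25 weeks in both genotypes. In limma these 8 of 8 were called lower in WT, where 15.3% of all tested genes were called lower, and 8 of 8 in Col6a2-/-, where 28.8% were. The ninth tested member, Plagl1, was also called lower in both, but it was under 1 TPM in all 16 libraries of 25 weeks. Plagl1 therefore passed the filter only through its 5-week libraries, and its call is not counted with the others. The median change of the 8 was -1.62 in WT and -2.35 in Col6a2-/-, beside -0.08 and -0.14 over all tested genes. Relative to the all-gene medians the 8 changes ran from -2.32 to -0.94 in WT and from -2.55 to -1.25 in Col6a2-/-. Of these 8, 6 in WT and 7 in Col6a2-/- had all 8 libraries of 25 weeks below all 8 of 5 weeks, which held for 2.30% and 1.88% of tested genes. The exceptions were H19 and Peg3 in WT and Peg3 in Col6a2-/-. With the sexes pooled, no age call of the 9 members was lost under any alternative that tested the gene, including each left-out library. Plagl1 was not tested in the fit restricted to genes of at least 5 TPM in 4 libraries. Within a sex some age calls were lost, as given below.

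**Figure D1:**
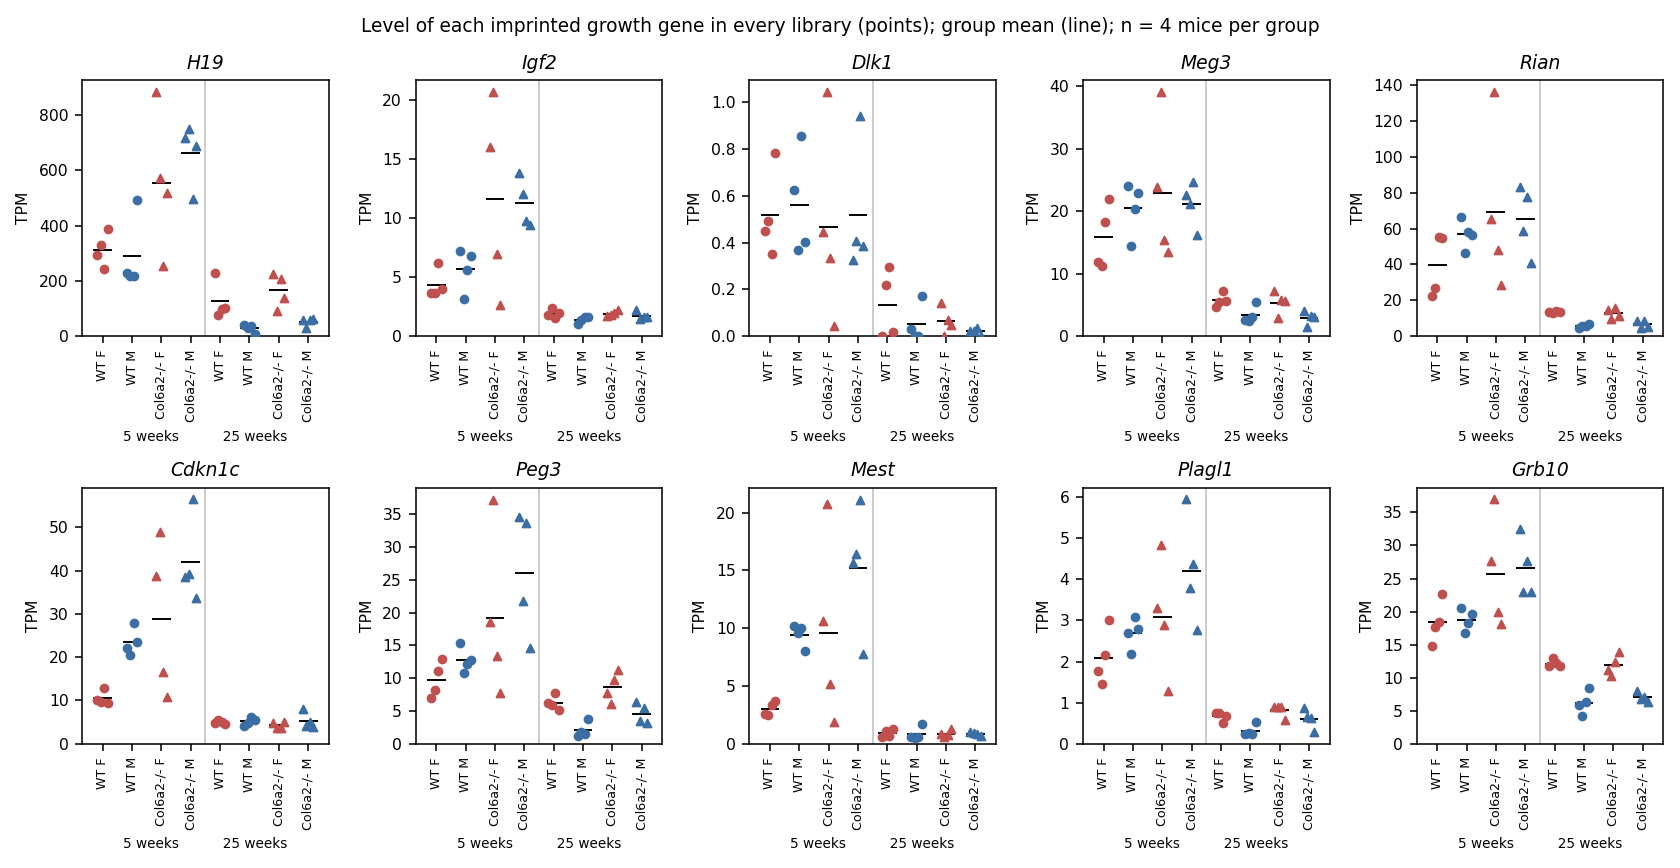
TPM of each member (panels, linear axes from 0) in all 32 libraries; circles are WT, triangles Col6a2-/-, red female (F), blue male (M), and lines mark the mean of 4 mice. The 5-week groups on the left of each panel stand above the 25-week groups, and the Col6a2-/- females of 5 weeks spread widest, from 252 to 881 TPM in H19.

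H19, a noncoding RNA known to restrain growth, was the most abundant member. It had 216 to 492 TPM (median 267) in WT at 5 weeks and 8.71 to 228 TPM (median 58.1) at 25 weeks. In Col6a2-/- it had 252 to 881 TPM (median 628) and then 30.5 to 225 TPM (median 75.4). Only 1 of the 8 WT libraries of 25 weeks, female 1 at 228 TPM, reached the range of 5 weeks. Mean TPM was 3.87-fold lower at 25 weeks in WT and 5.58-fold lower in Col6a2-/-, with limma changes of -2.40 (SE 0.284, adjusted p 5.02e-07) and -2.68 (SE 0.284, adjusted p 3.80e-08).

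Igf2, the insulin-like growth factor of fetal life, was far lower in these muscles. WT libraries held 3.17 to 7.24 TPM (median 4.79) at 5 weeks and 1.02 to 2.36 (median 1.61) at 25 weeks. Col6a2-/- libraries held 2.67 to 20.6 TPM (median 10.9) and then 1.49 to 2.25 (median 1.75). The ages did not overlap in either genotype. The change was -1.15 (SE 0.219, limma adjusted p 3.85e-04) in WT and -1.98 (SE 0.219, limma adjusted p 7.70e-08) in Col6a2-/-.

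The 3 members of the chromosome 12 cluster fell together. Dlk1 encodes a membrane protein with EGF repeats that affects fat and muscle precursors, and it was near the limit of detection, with only 1 of 32 libraries at or above 1 TPM. Its WT libraries had 0.353 to 0.854 TPM (median 0.471) at 5 weeks and 0 to 0.297 (median 0.025) at 25 weeks; Col6a2-/- libraries had 0.0452 to 1.04 TPM (median 0.398) and then 0 to 0.143 (median 0.0303). In exact permutation tests (two-sided, 8 against 8, adjusted over 4 comparisons) its log2(TPM + 1) changed by -0.49 in WT (p 0.000155, adjusted p 6.22e-04; the smallest p that the splits can give) and by -0.49 in Col6a2-/- (p 6.22e-04, adjusted p 0.00124). Mean coverage of Dlk1 was at most 1.65 in any group, so small differences in it were not detectable at this depth.

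Meg3, a noncoding RNA read from the maternal copy, had 11.2 to 24.1 TPM (median 19.3) in WT at 5 weeks and 2.43 to 7.27 (median 5.10) at 25 weeks. In Col6a2-/- it had 13.5 to 39.0 TPM (median 21.8) and then 1.43 to 7.24 (median 3.71). Rian, the noncoding host of many small nucleolar RNAs downstream of Meg3, had 22.7 to 66.3 TPM (median 55.1) in WT at 5 weeks and 4.82 to 13.9 (median 9.83) at 25 weeks. Col6a2-/- libraries held 28.3 to 136 TPM (median 62.0) of Rian and then 4.50 to 15.8 (median 9.05). In neither gene did the ages overlap. Meg3 changed by -1.79 in WT (SE 0.198, limma adjusted p 1.77e-07) and -2.17 in Col6a2-/- (SE 0.198, limma adjusted p 2.39e-09), and Rian by -2.23 (SE 0.223, limma adjusted p 3.20e-08) and -2.62 (SE 0.223, limma adjusted p 7.14e-10).

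Cdkn1c encodes p57, an inhibitor of cyclin-dependent kinases that holds cells out of the cycle. It had 9.45 to 27.8 TPM (median 16.6) in WT at 5 weeks and 4.04 to 6.28 (median 4.91) at 25 weeks. Col6a2-/- libraries had 10.9 to 56.5 TPM (median 38.6) and then 3.64 to 8.13 (median 4.40). The ages did not overlap, and the change was -1.46 in WT (SE 0.194, limma adjusted p 2.97e-06) and -2.53 in Col6a2-/- (SE 0.194, limma adjusted p 1.07e-10). At 25 weeks all 16 libraries lay within 3.64 to 8.13 TPM.

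Among the paternally expressed members, Mest showed the steepest fall in mean TPM. Mest encodes a protein of the alpha/beta hydrolase fold. It had 2.53 to 10.2 TPM (median 5.86) in WT at 5 weeks and 0.510 to 1.69 (median 0.654) at 25 weeks, a 7.04-fold lower mean. In Col6a2-/- it went from 1.91 to 21.1 TPM (median 13.1) to 0.585 to 1.30 (median 0.868), a 14.2-fold lower mean. The limma changes were -1.80 (SE 0.244, adjusted p 3.97e-06) and -2.59 (SE 0.244, adjusted p 4.18e-09).

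Peg3, a zinc finger protein gene with roles in growth and muscle stem cells, had 6.90 to 15.4 TPM (median 11.6) in WT at 5 weeks and 1.12 to 7.68 (median 4.41) at 25 weeks. Col6a2-/- libraries had 7.67 to 37.2 TPM (median 20.2) and then 3.14 to 11.3 (median 6.21). The ages overlapped in both genotypes, through females of 25 weeks. Its change was -1.40 in WT (SE 0.225, limma adjusted p 5.19e-05) and -1.56 in Col6a2-/- (SE 0.225, limma adjusted p 5.02e-06). Plagl1, a zinc finger transcription factor gene known to act on other imprinted genes, had 1.46 to 3.08 TPM (median 2.44) in WT at 5 weeks and 0.244 to 0.751 (median 0.518) at 25 weeks. In Col6a2-/- it had 1.27 to 5.94 TPM (median 3.54) and then 0.283 to 0.891 (median 0.761). Plagl1 changed by -1.18 (SE 0.138, limma adjusted p 4.19e-07) and -1.39 (SE 0.138, limma adjusted p 1.19e-08), with no overlap of the ages. Since only its 5-week libraries took it past the filter, it had to be higher there; in the fit with no TPM filter its limma adjusted p was 4.37e-06 in WT and 1.53e-07 in Col6a2-/-.

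Grb10 encodes an adaptor that binds the insulin and IGF1 receptors and dampens their signal. It kept the largest share of its 5-week level. WT libraries had 14.8 to 22.6 TPM (median 18.4) at 5 weeks and 4.27 to 12.9 (median 10.1) at 25 weeks, a 2.03-fold lower mean. Col6a2-/- libraries had 18.1 to 37.1 TPM (median 25.3) and then 6.34 to 13.9 (median 9.14), a 2.75-fold lower mean. The changes were -1.02 (SE 0.122, limma adjusted p 5.46e-07) and -1.38 (SE 0.122, limma adjusted p 1.22e-09).

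**Figure D2:**
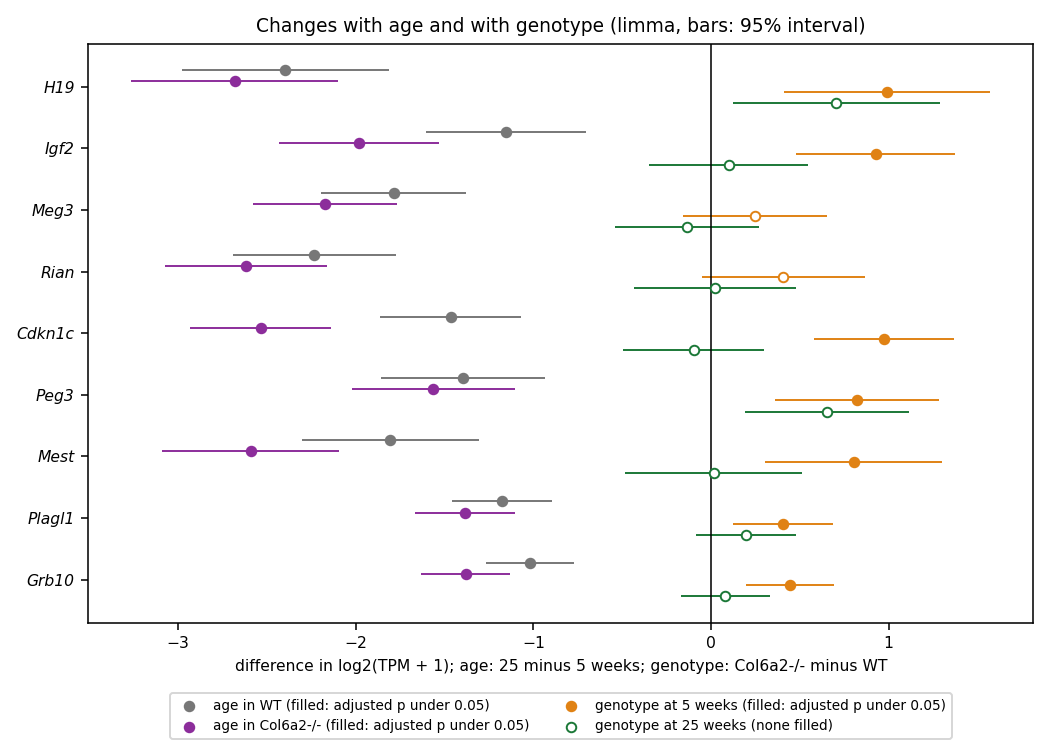
Differences in log2(TPM + 1) of the 9 tested members (rows) with 95% intervals, for age in WT and in Col6a2-/- (25 minus 5 weeks) and for genotype at each age (Col6a2-/- minus WT); filled points have an adjusted p under 0.05. Every age point lies left of 0, 7 of 9 genotype points at 5 weeks are filled to the right of 0, and no genotype point at 25 weeks is filled.

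In young muscle, 7 of the 9 tested members were higher in Col6a2-/- than in WT: H19, Igf2, Cdkn1c, Peg3, Mest, Grb10 and Plagl1. At 5 weeks 23.2% of all tested genes were called higher, and the members' median change was 0.80 beside 0.15 over all genes. Relative to that median the 7 called changes ran from 0.26 to 0.85. Mean TPM of H19, Igf2, Cdkn1c, Peg3 and Mest was 1.99-fold to 2.27-fold that of WT. All 4 tested paternally expressed members were called, as were 3 of the 5 maternally expressed ones. With the sexes pooled, no member separated the genotypes completely, and 1.18% of tested genes did so upwards. Within males H19, Igf2, Cdkn1c and Grb10 did not overlap between genotypes, and within females every member overlapped. No share over all tested genes is given for the sexes apart, so whether this separation within males is unusual cannot be said.

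H19 differed by 0.99 (SE 0.284, limma adjusted p 0.0119), where WT averaged 301 ± 98.4 TPM and the knockout 608 ± 193 (SD, n = 8). The cell cycle inhibitor Cdkn1c gave 0.97 (limma adjusted p 5.63e-04; SE 0.194), with 17 ± 7.30 TPM in WT and 35.4 ± 15.2 in the knockout. Igf2 gave 0.93 (limma adjusted p 0.00297; SE 0.219), and its mean level went from 5.03 ± 1.59 to 11.4 ± 5.54 TPM. These 3 genes share the end of chromosome 7. Peg3 rose by 0.82 (limma adjusted p 0.00881) and Mest by 0.80 (limma adjusted p 0.0170). Grb10 rose by 0.44 (limma adjusted p 0.00869) and Plagl1 by 0.41 (limma adjusted p 0.0315).

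The chromosome 12 cluster was not called. Meg3 differed by 0.25 (95% interval -0.16 to 0.65, limma adjusted p 0.361) and Rian by 0.41 (95% interval -0.05 to 0.86, limma adjusted p 0.177). Dlk1 differed by -0.07 on the log2 scale (exact permutation p 0.601, two-sided), and its WT mean of 0.541 ± 0.191 TPM lay beside a knockout mean of 0.491 ± 0.333 (SD, n = 8). Mirg, a noncoding RNA of the same cluster, differed by 0.29 (limma adjusted p 0.276). Whether these genes responded less than the called members was not tested.

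Several calls depended on single mice or on the fit. Rian was called without Col6a2-/- female 4 (0.58, limma adjusted p 0.0275). Mest was not called without Col6a2-/- female 2 (0.57, limma adjusted p 0.0512), nor in the fit on only the 16 libraries of 5 weeks (0.80, limma adjusted p 0.0752). Plagl1 was not called when any of 7 libraries was left out, namely WT females 1 and 2, WT male 2, Col6a2-/- females 1 and 2, and Col6a2-/- males 1 and 3, with changes of 0.31 to 0.39 and adjusted p of 0.0573 to 0.0993. The Plagl1 call was also lost with median-of-ratios scaling (0.25, adjusted p 0.104), quantile normalization (0.21, adjusted p 0.146), a pseudocount of 0.1 (adjusted p 0.0850), no TPM filter (adjusted p 0.0664) and only the 5-week libraries (adjusted p 0.108). On only the 5-week libraries 5 members were called. With both females 2 and 4 left out, an alternative chosen after the data were seen, 7 members were called.

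**Figure D3:**
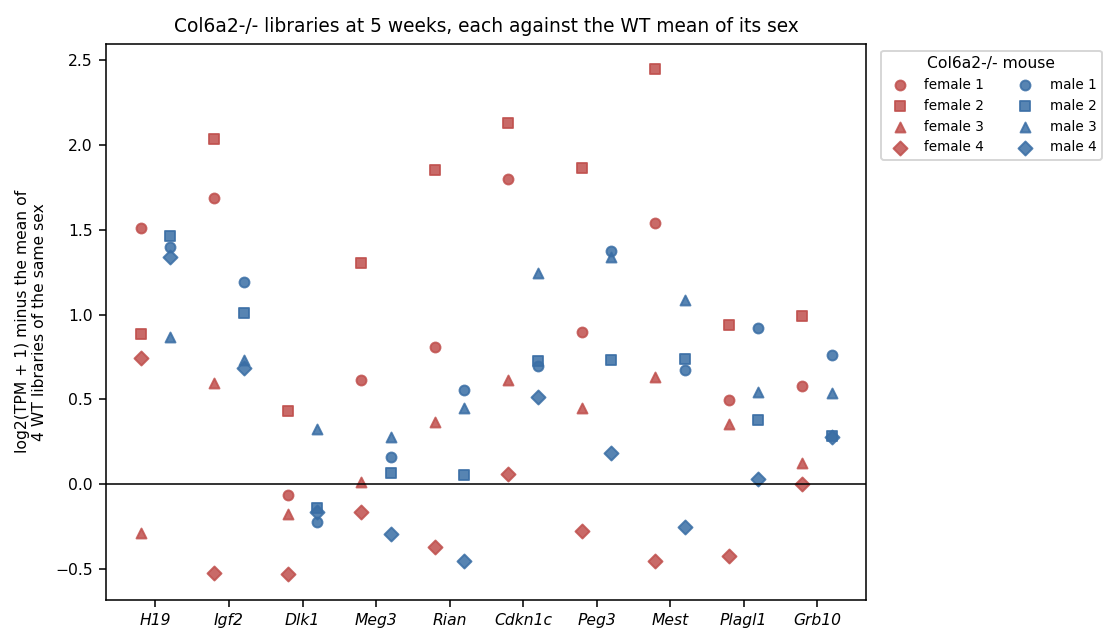
Each Col6a2-/- library of 5 weeks as its log2(TPM + 1) minus the mean of the 4 WT libraries of the same sex; colours mark sex and shapes the mouse. By TPM, female 2 (red squares) is the highest library in 6 of the 10 genes and female 4 (red diamonds) the lowest in 9.

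The order of the Col6a2-/- females was alike in most members. In Igf2 the 4 females had 16, 20.6, 6.99 and 2.67 TPM (mice 1 to 4), and in Cdkn1c 38.8, 48.9, 16.5 and 10.9. Mest had 10.6, 20.8, 5.18 and 1.91 TPM in the same mice and Peg3 18.6, 37.2, 13.3 and 7.67. Females 1 and 2 were high and female 4 lay inside or below the WT female range, which was 3.65 to 6.17 TPM in Igf2 and 9.45 to 12.8 in Cdkn1c. H19 did not follow that order, with 881, 570, 252 and 517 TPM.

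Within females of 5 weeks, 3 members were called higher in Col6a2-/-: Igf2 (0.95, limma adjusted p 0.0421), Cdkn1c (1.15, limma adjusted p 0.00723) and Mest (1.04, limma adjusted p 0.0443). In that comparison 12.3% of tested genes were called higher. The count was 7 without Col6a2-/- female 4, 0 without female 2, and 1 without Col6a2-/- female 1 or any of WT females 1, 2 and 4. For these left-out fits, and those of males below, the share of all genes called is not given. Without Col6a2-/- female 2 the differences were 0.59 in Igf2, 0.82 in Cdkn1c and 0.57 in Mest. The highest values with 1 library left out were 1.44, 1.51 and 1.54 in these genes. The Igf2 call was lost under all 3 other scalings (limma adjusted p 0.0679 to 0.0902), as was that of Mest (limma adjusted p 0.0565 to 0.0938). Cdkn1c was called under those 3 scalings but not in the fit on only the 5-week libraries (limma adjusted p 0.0518). Within males of 5 weeks no member was called (4.55% of tested genes called higher), though 6 had an unadjusted limma p under 0.05 and 5 were called when TPM was rescaled without mitochondrial and Rn7s genes. That scaling called 1396 of 16100 tested genes higher in these males, against 583 of 12817 in the main fit. In the main fit H19 differed in males by 1.27 (limma adjusted p 0.0637), from 216 to 492 TPM in WT to 494 to 748 in Col6a2-/-. Peg3 differed by 0.91 (limma adjusted p 0.0994). The male count was 3 without Col6a2-/- female 2 or 4, and 1 without Col6a2-/- female 3, Col6a2-/- male 4, WT male 4, or the 25-week WT female 1 or male 4; libraries outside the contrast enter through the shared fit. The difference between the sexes in the effect of genotype was called for no member in limma (0.0156% of genes called; no member had an unadjusted p under 0.05).

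At 25 weeks no member was called between genotypes in limma, where 4.70% of genes were called, and 2 of 9 had an unadjusted p under 0.05. Peg3 averaged 4.13 ± 2.47 TPM in WT and 6.64 ± 2.85 TPM in knockout muscle (SD, n = 8), a difference of 0.65 (95% interval 0.20 to 1.11, limma adjusted p 0.0914). H19 had 77.7 ± 69.5 and 109 ± 73.8 TPM, a difference of 0.71 (95% interval 0.12 to 1.29, limma adjusted p 0.160). The other 7 tested members differed by -0.14 to 0.20. Peg3 was called in limma with median-of-ratios scaling (0.57, adjusted p 0.0395), with a pseudocount of 0.1 (0.83, adjusted p 0.0454) and in the fit on only the 16 libraries of 25 weeks (adjusted p 0.0254). It was also called without WT male 4 of 25 weeks (0.77, adjusted p 0.0433), Col6a2-/- female 2 of 5 weeks (adjusted p 0.0348) or Col6a2-/- female 4 of 5 weeks (adjusted p 0.0431). Within 25-week females no member was called (0.0078% of genes called; no member with an unadjusted p under 0.05). Within 25-week males none was called either (3.03% of genes called; H19 and Peg3 had an unadjusted p under 0.05), and 1 was without Col6a2-/- female 2 of 5 weeks.

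The change of the genotype effect between ages was tested directly. All 9 interaction values were negative, from -1.07 in Cdkn1c to -0.17 in Peg3, beside a median of -0.06 over all genes. None was called in limma (0.421% of tested genes were called lower), and 4 of 9 had an unadjusted p under 0.05; under each of the 3 other scalings 1 member was called. Cdkn1c came nearest, at -1.07 (SE 0.274, adjusted p 0.0813), followed by Igf2 at -0.83 (adjusted p 0.462) and Mest at -0.79 (adjusted p 0.616). Without Col6a2-/- female 4 of 5 weeks 3 members were called, and 1 was without Col6a2-/- female 3 of 5 weeks or Col6a2-/- male 1 of 25 weeks. No share of all genes is given for those left-out fits.

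For 4 members the fall with age was steeper in males. The age change was more negative in males than in females for H19 (-1.98, SE 0.402, limma adjusted p 0.00984), Peg3 (-1.52, SE 0.318, limma adjusted p 0.0114), Rian (-1.32, SE 0.316, limma adjusted p 0.0216) and Grb10 (-0.85, SE 0.172, limma adjusted p 0.00984). Those 4 of 9 calls stand beside 3.19% of tested genes called lower. Relative to the median of all genes the 4 values ran from -1.79 to -0.66, and all 4 were called under the 3 other scalings. The count was 8 without Col6a2-/- female 2 of 5 weeks, 7 without Col6a2-/- male 4 of 5 weeks, and 7 without Col6a2-/- male 1 of 25 weeks. The share of all genes called in those 3 fits is not given here, so these rises cannot be set against it. Rian was not called without the filter on TPM (adjusted p 0.0628).

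At 25 weeks the same 4 genes were lower in males. H19 had 228, 76.9, 97.9 and 104 TPM in WT females and 39.4, 28.2, 38.9 and 8.71 in WT males, and in Col6a2-/- 225, 89.7, 208 and 140 against 59.2, 30.5, 58.4 and 61.0. All 8 males were below all 8 females, as they were for Rian (4.50 to 8.70 TPM in males, 9.40 to 15.8 in females) and Grb10 (4.27 to 8.46 and 10.2 to 13.9). Those 3 of 10 members compare with 0.476% of tested genes. Peg3 overlapped, with 1.12 to 6.44 TPM in males and 5.12 to 11.3 in females. In limma, 4 members were lower in males, beside 1.77% of genes: H19 (-1.89, adjusted p 8.01e-05), Grb10 (-0.79, adjusted p 1.06e-04), Peg3 (-1.05, adjusted p 0.00630) and Rian (-0.98, adjusted p 0.0123). Igf2, Mest and Cdkn1c differed between the sexes by -0.18, -0.04 and 0.13 at this age, Plagl1 by -0.26 and Meg3 by -0.67 (unadjusted p 0.00226, limma adjusted p 0.0725), and none of the 5 was called. The libraries of WT males also differed in their makeup at this age: mitochondrial genes took 44.6%, 44.9%, 46.9% and 32% of TPM in males 1 to 4 and 33.8% to 38.1% in WT females, and 10399 to 10877 genes reached 1 TPM against 10748 to 11319. In Col6a2-/- the mitochondrial shares were 37.8% to 43% in males and 32.4% to 43.4% in females. Rescaled without mitochondrial and Rn7s genes, the same 4 members were called lower in males, H19 by -1.80, Peg3 by -1.13, Rian by -0.95 and Grb10 by -0.74 (limma adjusted p 2.09e-04 to 0.0120), and all 4 were also called with median-of-ratios and quantile scaling.

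At 5 weeks 2 other members differed by sex. Mest had 2.54, 2.53, 3.34 and 3.68 TPM in WT females and 10.2, 9.57, 10.0 and 8.04 in WT males, with no overlap. Cdkn1c had 10.1, 9.63, 12.8 and 9.45 TPM in WT females and 22.1, 20.4, 27.8 and 23.4 in WT males. Over both genotypes Mest was higher in males by 1.15 (SE 0.244, limma adjusted p 0.00534) and Cdkn1c by 0.91 (SE 0.194, limma adjusted p 0.00523), beside 4.14% of genes called higher. The sexes overlapped in Col6a2-/-, where females spread from 1.91 to 20.8 TPM in Mest. The count was 5 without Col6a2-/- female 2, a fit for which the share of all genes called is not given. The tests of sex at each age were added after the data were seen. Over both ages, H19 and Grb10 were called lower and Cdkn1c higher in males, 3 of 9 members beside 3.05% of genes; the call of Cdkn1c was lost without the TPM filter (0.52, adjusted p 0.0761), or without 25-week WT male 3, 5-week Col6a2-/- female 3, 5-week Col6a2-/- male 3 or 25-week Col6a2-/- male 1 (0.48 to 0.50, adjusted p 0.0502 to 0.0557).

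**Figure D4:**
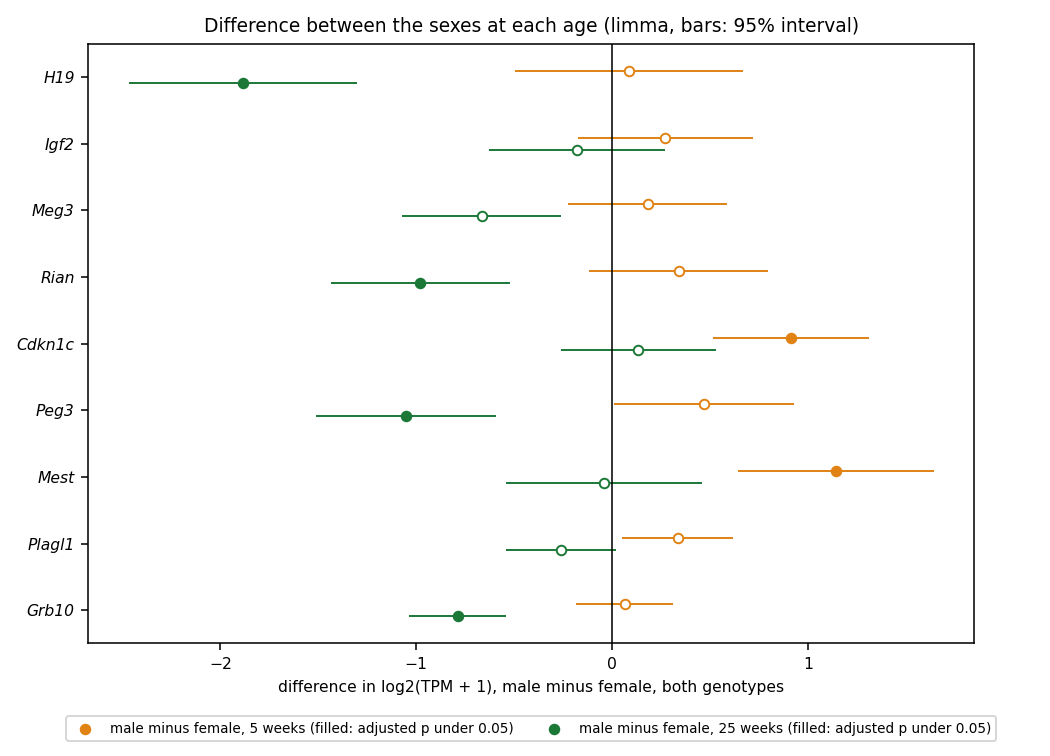
Male minus female difference in log2(TPM + 1) of the 9 tested members at 5 and 25 weeks over both genotypes, with 95% intervals; filled points have an adjusted p under 0.05. Mest and Cdkn1c are filled to the right of 0 at 5 weeks, and H19, Rian, Peg3 and Grb10 to the left of 0 at 25 weeks.

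Within each sex and genotype the fall with age was called in all 9 tested members, Plagl1 with the limit given above, in WT males (26% of genes called lower) and in Col6a2-/- males (22.9%). In Col6a2-/- females it was called in 8 (5.77% of genes), Plagl1 among them, but not in Peg3 (-0.88, limma adjusted p 0.0857), and H19 was lost without Col6a2-/- female 1 of 5 weeks (-1.43, adjusted p 0.0532) or without females 2 and 4 of 5 weeks (-1.59, adjusted p 0.0517). WT females gave 3 calls, Meg3 (-1.27), Rian (-1.38) and Plagl1 (-0.87, with its limit from the filter), beside 0.663% of genes. The count was 8 with median-of-ratios scaling, and 6 with quantile normalization or only the WT libraries. Genes called lower also rose, from 85 of 12817 to 303 with median-of-ratios scaling and 268 with quantile normalization. With only the WT libraries they were 152 of 11838. In WT females the count of members was 0 without WT female 4 of 5 weeks, 1 without WT female 3 of 5 weeks, and 6 without Col6a2-/- female 2 or 4 of 5 weeks. Shares of all genes are not given for these left-out fits. Mean H19 was 313 ± 62.2 TPM in 5-week WT females and 289 ± 135 in 5-week WT males (SD, n = 4).

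The median change of other imprinted genes was smaller. Of 64 listed, 36 passed the filter; 10 fell and 3 rose with age in WT, with a median change of -0.13, and 18 fell and 5 rose in Col6a2-/- (median -0.27). Over all tested genes 15.3% and 28.8% were called lower, and the medians were -0.08 and -0.14. Of the 36, 3 were under 1 TPM in every 25-week library, and of the other 33, 7 fell in WT and 15 in Col6a2-/-. The neighbours of the members took part unevenly. Mirg, next to Rian, fell from 3.80 to 0.637 TPM in WT (-1.53, limma adjusted p 2.08e-06) and changed by -1.83 in Col6a2-/-. Zim1, beside Peg3, fell by 0.94 in WT and by 1.97 in Col6a2-/-, and Ddc, beside Grb10, by 0.46 and 0.85 (limma adjusted p 0.00306 and 8.46e-07); Ddc is among the 3 that passed the filter only through 5-week libraries. Ndn, which encodes necdin, a growth suppressor, fell by 0.68 and 0.84. Peg13 (0.36 and 0.39), Zrsr1 (0.41 and 0.44) and Snrpn (0.24 and 0.51) rose in both genotypes. Copg2, opposite Mest, was not called in WT (-0.14, adjusted p 0.374) and changed by -0.32 in Col6a2-/- (adjusted p 0.0205). Cobl, in the Grb10 region, was called in neither (-0.08 and -0.29).

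**Figure D5:**
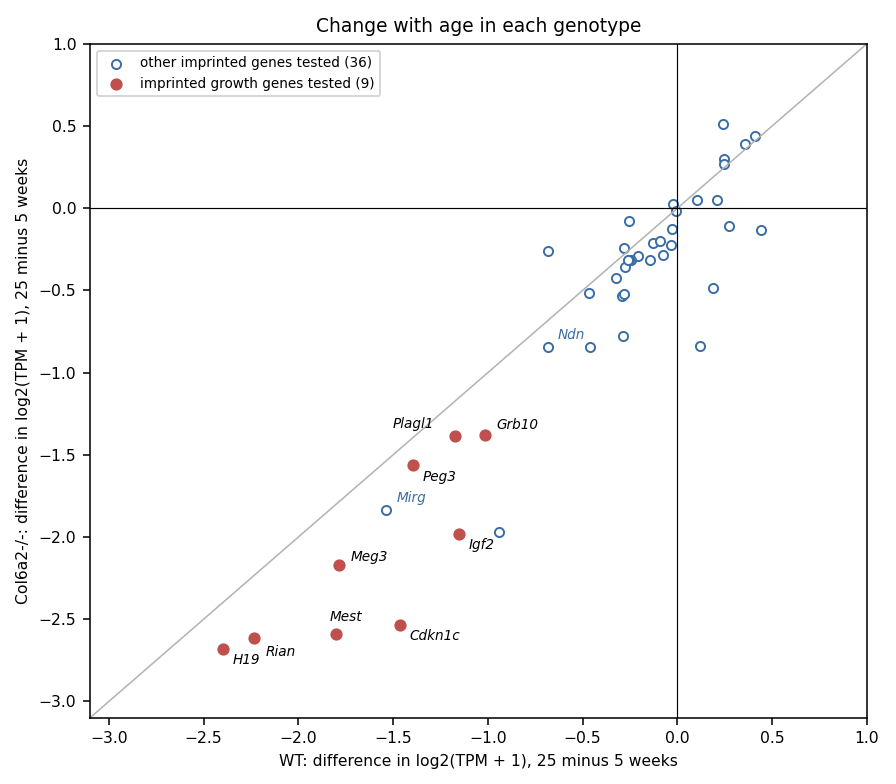
Change with age (25 minus 5 weeks, log2(TPM + 1)) in WT on the x axis and in Col6a2-/- on the y axis for the 9 tested members (red) and 36 other imprinted genes (open blue); the grey line marks equal change. The members lie between -2.40 and -1.02 in WT, and all lie below the grey line.

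Around Cdkn1c, the Kcnq1 region was mixed. Cd81 fell in both genotypes (-0.46 and -0.52), Kcnq1ot1, the long antisense RNA of the region, fell by 0.21 and 0.29, and Nap1l4 (0.10 and 0.05) and Dhcr7 (-0.28 and -0.24) were not called. Like Ddc, Kcnq1ot1 was under 1 TPM in all 16 libraries of 25 weeks and passed the filter only through 5-week libraries, so it had to be higher there. Kcnq1ot1 cannot be told apart from Kcnq1 on the other strand if strand was not used. Osbpl5 and Tnfrsf23 fell in Col6a2-/- (-0.77 and -0.84) and were not called in WT (-0.29 and 0.12), and Tssc4 was called in neither (0.28 and -0.11). Kcnq1, Slc22a18, Tspan32, Ascl2 and Phlda2 did not pass the filter, nor did Ins2, Rtl1, Dio3, Begain, Usp29, Zim3, Zfp264 and Klf14 in the other regions. At 5 weeks 12 of the 36 were higher and 1 lower in Col6a2-/- (median 0.19), beside 23.2% of all tested genes called higher and a median of 0.15 over them. They were led by Ampd3 (0.91, limma adjusted p 1.64e-07), Tnfrsf23 (1.08, limma adjusted p 9.77e-06) and Zim1 (1.21, limma adjusted p 1.07e-05), with Osbpl5 at 0.61 and Ndn at 0.40. Snrpn was the lower one (-0.31). None of the 36 was called between genotypes at 25 weeks in limma.

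Of the genes that act with the members (IGF receptors and their adaptors, Notch receptors, cyclins and their kinases, and factors that keep imprints), 21 of 25 passed the filter. With age 8 fell in WT and 13 in Col6a2-/-, none rose, and the medians were -0.29 and -0.40; without the 2 that were under 1 TPM in every 25-week library, 7 and 11 of 19 fell. Over all tested genes 15.3% and 28.8% were called lower. Igf1, the postnatal counterpart of Igf2, fell from 13.9 to 4.42 TPM in WT (-1.41, limma adjusted p 8.98e-07) and by 1.33 in Col6a2-/-. Cyclin genes Ccnd1 (-1.02 and -1.10) and Ccnd2 (-0.73 and -0.55) and the kinase gene Cdk2 (-0.48 and -0.61) also fell in both. At 5 weeks 7 of the 21 were higher in Col6a2-/-, where 23.2% of all tested genes were. Cdkn1a, which encodes p21, a kinase inhibitor related to p57, rose from 2.70 to 13.7 TPM (1.98, limma adjusted p 1.10e-07), followed by Cdk6 (0.37), Notch2 (0.47) and Igf2r (0.39), the receptor that clears IGF2. Ctcf, which encodes the factor that insulates Igf2 from the H19 enhancers, was called in none of the 4 comparisons of age and genotype, with changes of -0.03 with age in both genotypes; it was named after its values were seen.

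Genes of the fetal growth programme gave 6 lower of 10 tested with age in WT and 7 in Col6a2-/- (medians -0.58 and -0.91); 3 of the 10, Mdk and Nrk among them, were under 1 TPM in every 25-week library, and 4 of the other 7 fell in each genotype. Over all tested genes 15.3% and 28.8% were called lower. Tubb2b (-0.65 and -1.0), Mdk (-0.89 and -1.27) and Nrk (-0.71 and -1.09) fell in both, and Sox4 fell by 0.51 and 1.09. In Col6a2-/- at 5 weeks 3 of the 10 were higher, beside 23.2% of all tested genes: Tubb2b (0.84), Sox4 (0.61) and Ptn (0.72). At 25 weeks Tubb2b, a tubulin gene, was the 1 called gene of the 10 (0.49, limma adjusted p 0.0180).

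Markers of other cells and states moved with the same contrasts, and their part in the members' changes was not tested. With age in WT 15.3% of all tested genes were called lower. There 14 of 18 cell cycle genes and 10 of 18 fibroblast genes fell, as did 7 of 10 satellite cell genes. So did 5 of 16 genes of immature and regenerating muscle, 1 of 12 macrophage genes and 4 of 12 skeletal muscle genes. Also lower were 4 of 7 Schwann cell genes, 5 of 10 tenocyte genes and 3 of 12 endothelial genes, while of 10 adipocyte genes 1, Car3 (0.56), was higher and none was lower in limma. Of the 18 cell cycle genes 12 were under 1 TPM in every 25-week library, and 2 of the other 6 fell in WT. The same restriction left 5 of 8 satellite cell genes and 4 of 12 genes of immature muscle lower in WT. With age in Col6a2-/- 28.8% of all tested genes were called lower. In that comparison 16 of 18 cell cycle genes, 14 of 16 genes of immature and regenerating muscle and 10 of 12 macrophage genes fell. So did 10 of 10 satellite cell genes, 9 of 18 fibroblast genes and 7 of 7 Schwann cell genes. Without genes under 1 TPM in every 25-week library these were 4 of 6, 10 of 12, 9 of 11, 8 of 8, 9 of 18 and 7 of 7. There 5 of 10 tenocyte genes and 6 of 12 endothelial genes also fell, and Car3 was higher (0.56). At 5 weeks 23.2% of all tested genes were called higher in Col6a2-/-, and 274 of 12817 were called lower. All 12 tested macrophage genes, 13 of 16 genes of immature and regenerating muscle and 11 of 18 cell cycle genes were higher. So were 9 of 18 fibroblast genes and 5 of 10 satellite cell genes, and 6 of 12 skeletal muscle genes were lower. Of 12 endothelial genes 6 were also higher, with Pecam1 at 0.34, Esam at 0.37 and Egfl7 at 0.32, and no gene of the tenocyte, adipocyte or Schwann cell lists was called in limma. Among the higher genes were Lyz2 (1.97) and C1qb (1.37) of macrophages, Mymx (3.49), which drives fusion of myoblasts, and Myl4 (3.32), an embryonic myosin light chain. Rrm2 (0.50) and Ccnb2 (0.52) of the cell cycle and the collagen gene Col3a1 (1.04) were also higher. The summed macrophage level was 74.2 to 124 TPM in WT and 112 to 390 in Col6a2-/- at that age; Col6a2-/- female 4 had 112 and female 2 had 390. Summed cell cycle TPM in the Col6a2-/- females 1 to 4 was 34.6, 60.8, 28.1 and 18.9, the same order as Igf2, Cdkn1c and Mest in those mice. That order was not particular to the cell cycle. Macrophage (277, 390, 221 and 112 TPM), satellite cell, fibroblast and endothelial sums had it too. The skeletal muscle, immature muscle, tenocyte, adipocyte and Schwann cell sums did not. Female 2 was also the highest Col6a2-/- library of 5 weeks in 48.9% of all tested genes, and female 4 the lowest in 51.5%. At 5 weeks 16 of 18 cell cycle genes were higher in males, beside 4.14% of all tested genes. They summed to 16.4 to 21.8 TPM in WT females and 33.9 to 47.8 in WT males. The 12 of these 18 genes named above passed the filter only through 5-week libraries. The summed level of 5-week WT females lay within the 16.1 to 22.9 TPM of the 25-week libraries. WT males and all Col6a2-/- libraries of 5 weeks except female 4 lay above that range. The filter itself can therefore favour higher values in males and in Col6a2-/-, though the libraries that took each gene past it are not given here. That limit holds for the 16 of 18 higher in males and for the 11 of 18 higher in Col6a2-/-. Neither count was repeated without these 12 genes, so neither can show a difference for them. Also higher in males at 5 weeks were 3 of 18 fibroblast genes, 3 of 12 endothelial genes and 1 gene each of immature muscle, satellite cells and macrophages, and 1 adipocyte gene was lower. In WT of 5 weeks the genes of immature and regenerating muscle summed to 594 to 1119 TPM in females and 1756 to 3031 in males. Satellite cell genes summed to 28.6 to 34.9 and 36.1 to 42.6 TPM in those mice, and macrophage genes to 74.2 to 77.8 and 80.8 to 124. The sexes did not overlap in these 4 sums in WT, and they did in Col6a2-/-. At 25 weeks, when H19, Rian, Peg3 and Grb10 were lower in males, no cell cycle gene was called between the sexes. The summed cell cycle level was 16.1 to 22.9 TPM in all 16 libraries. In WT it was lower in males, at 16.09 to 16.59 TPM against 17.99 to 20.48 in females, with no overlap. In Col6a2-/- it overlapped between the sexes, at 18.13 to 22.89 TPM in males and 17.79 to 22.2 in females. Of the other marker lists, 1 gene each of adipocytes, fibroblasts and immature muscle was called lower in males, beside 1.77% of all tested genes. Summed levels in WT at 25 weeks were 1069 to 1843 TPM in females and 547 to 854 in males for adipocyte genes, and 198 to 298 against 118 to 188 for immature and regenerating muscle. Tenocyte genes summed to 85.4 to 191 TPM in WT females and 21.1 to 70.6 in WT males, satellite cell genes to 25.8 to 29.8 and 21 to 25.3, and fibroblast genes to 837 to 1046 and 559 to 935. In Col6a2-/- the sexes also overlapped in the sums of these 5 other lists. The part of these cells in the sex differences was not tested.

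Across the 32 libraries the 9 tested members varied together. Pearson r of log2(TPM + 1) over the 36 pairs was 0.72 to 0.98 with a median of 0.90, and with the group means removed it was -0.10 to 0.89 with a median of 0.73. H19 stood apart there: its pairs had r from -0.10 (with Mest) to 0.15 (with Meg3), and all pairs without H19 had 0.61 to 0.89. These are descriptions; the libraries share age, genotype and scaling. With the 10 members left out of the ranking, the genes most like a member over 32 libraries, by Pearson r, were Capn6 for Mest (0.99) and Cdkn1c (0.98), Megf10 and Mdk for Igf2 (both 0.95), C1qtnf6 for Plagl1 (0.97), Tmed3 for Peg3 (0.95) and Itm2a for Grb10 (0.95). Gm24598 and Mirg were among the 3 non-members most like both Meg3 (0.96 and 0.95) and Rian (0.98 and 0.97). H19 had the lowest best match among non-members, Ip6k3 at 0.89.

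Within clusters, pairs were compared over the 16 libraries of each age with group means removed, in 8 relations tested by permuting libraries within groups (two-sided). Meg3 and Rian varied together at 5 weeks (r 0.94, rho 0.88, permutation p 7e-05, adjusted p 5.60e-04 for r and 8.80e-04 for rho) and at 25 weeks (r 0.76, rho 0.71, permutation p 0.00263, adjusted p 0.00701 and 0.0106). Without the 2 libraries farthest from the median of Meg3, r was 0.89 and 0.54. Dlk1 and Meg3 gave r 0.72 and rho 0.60 at 5 weeks (permutation p 0.0121, adjusted p 0.0242 and 0.0557) and r 0.58 and rho 0.71 at 25 weeks (permutation p 0.00230, adjusted p 0.00701 and 0.0106), or 0.56 and 0.42 without the 2 farthest. Dlk1 and Rian gave r 0.69 and rho 0.44 at 5 weeks (permutation p 0.0268, adjusted p 0.0429 and 0.160), and r 0.27 and rho 0.41 at 25 weeks (permutation p 0.0722, adjusted p 0.0962 and 0.0557), or 0.51 and 0.22 without the 2 farthest. H19 and Igf2, which share enhancers, showed no relation that passed the test: r 0.33 and rho 0.41 at 5 weeks (permutation p 0.512, adjusted p 0.512 and 0.214), and r -0.22 and rho -0.16 at 25 weeks (permutation p 0.492, adjusted p 0.512 and 0.585), or 0.29 and -0.16 without the 2 farthest. At 5 weeks Col6a2-/- female 2 was 1 of the 2 libraries left out for each chromosome 12 pair. These relations cannot be called particular to a cluster, since pairs from different regions were not tested. Over all 32 libraries with group means removed, r was 0.84 for Meg3 with Rian. On different chromosomes it was 0.89 for Rian with Peg3 and 0.86 for Peg3 with Grb10. The lowest pair without H19, Meg3 with Plagl1, had 0.61.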

How the data were processed

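Total RNA of quadriceps muscle from 32 mice was sequenced, 1 library per mouse, per the labels' protocols. Per the submitters' processing notes the tools were FastQC, MultiQC, Trimmomatic, HISAT2, SAMtools and StringTie with the build GRCm38 (mm10); versions, annotation and use of strand are not given in the sources used here. The deposited tables hold coverage (mean read depth, an unscaled signal), FPKM and TPM per gene as computed by the authors, per the file headers. TPM was used for all tests and the authors' coverage for the depth behind a value; the deposited FPKM was not tested. No read counts were used, so depth in reads is unknown and tests for counts were not applicable. Coordinates of the members equal those of GENCODE M21.

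The tests, run in limma 3.58.1 (lmFit, eBayes with trend; R 4.3.3, package data.table, version 1.17.8), took TPM plus a pseudocount of 1 on the log2 scale and kept a gene if 4 or more libraries reached 1 TPM, with a mean per group and contrasts that weight the other factors equally, in 18 comparisons (2 of them, sex at each age, added after the data were seen), adjusted over all 12817 genes by Benjamini-Hochberg. On simulated data for age in WT over 12817 genes, 76 of 100 genes changed by 0.5 and 98 of 100 changed by 1 were called, as were 14 of 12617 unchanged genes. Dlk1 was tested by exact permutation. Relations used 100000 permutations (Python 3.11.15, numpy 2.4.6, pandas 2.3.3); plots used matplotlib 3.10.9. The members, lists and tests were chosen with earlier results of these data known. Genes named besides the members were, per main comparison, up to 6 called imprinted genes, 4 called partners and 3 called genes of any other list with the smallest adjusted p, all genes of the members' clusters, and the 3 genes most like each member; of these lists and likenesses the text gives a part. Alternatives were other pseudocounts, filters, scalings, a robust fit, a replicate block, fits on 16 libraries and each library left out.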

Additional observations from a re-analysis of the deposited data

Results flagged for a closer look

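Among 80 sets of 4 libraries (10 members in 8 groups), 8 held a library far from the other 3, by a gap to the nearest library, divided by the group's range, above Dixon's 95% critical value; chance alone gives about 1 in 20. H19 had 492 TPM in 5-week WT male 4 (gap over range 0.930) and 30.5 TPM in 25-week Col6a2-/- male 2 (0.936). Igf2 had 6.17 TPM in 5-week WT female 3 (0.851). Dlk1 had 0.942 TPM in 5-week Col6a2-/- male 3 (0.842). Rian had 12.9 TPM in 25-week WT female 2 (0.842). Mest (1.69 TPM, 0.879) and Plagl1 (0.535 TPM, 0.980) were both high in 25-week WT male 4. Plagl1 was low, at 0.571 TPM, in 25-week Col6a2-/- female 4 (0.991).

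In 4 members the sexes differed in their change with age, in limma's test of the difference itself: H19 (-1.98), Peg3 (-1.52), Rian (-1.32) and Grb10 (-0.854), male minus female in log2(TPM + 1), with adjusted p of 0.00984, 0.0114, 0.0216 and 0.00984. In each the fall was steeper in males.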

How the results depend on the processing

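Over 81 results for single members, 3461 alternative values were computed: 3373 kept direction and side of the threshold, 59 lost and 8 gained a call, and 21 changed sign. Of 70 called results 59 kept their call throughout. The sign changes were all in genotype at 25 weeks, in values near 0. With median-of-ratios scaling Rian became -0.084, Mest -0.040 and Grb10 -0.024; rescaled without mitochondrial and Rn7s genes, Rian became -0.042 and Mest -0.0074; with quantile normalization Igf2 became -0.026, Rian -0.062, Mest -0.12 and Grb10 -0.0031. Leaving out single libraries gave -0.038 to 0.098 for Rian and -0.035 to 0.11 for Mest. The causes were not tested.

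Counts of members called moved as follows, and except where given above, the share of all genes called in these fits is not given. Genotype at 5 weeks (7) became 5 with only the 5-week libraries, losing Mest and Plagl1. Both were also lost without Col6a2-/- female 2 of 5 weeks, and Rian was gained without Col6a2-/- female 4 of 5 weeks. Plagl1 alone was lost with a pseudocount of 0.1, no filter, median-of-ratios scaling or quantile normalization, and without other single libraries named above. Genotype at 25 weeks (0) became 1, Peg3, with a pseudocount of 0.1, median-of-ratios scaling, only the 25-week libraries or without Col6a2-/- females 2 and 4 of 5 weeks, and 0 to 1 without single libraries. Genotype by age (0) became 1 under each of the 3 scalings, 2 without those females, and 0 to 3 without single libraries. Age by sex (4) became 8 without those females and 4 to 8 without single libraries. In 5-week females (3) the count was 1 with a pseudocount of 0.1, no filter or any of the 3 scalings, 0 with only the 5-week libraries, and 0 to 7 without single libraries. In 5-week males (0) it was 5 rescaled without mitochondrial and Rn7s genes or without those females, 1 with only the 5-week libraries, and 0 to 3 without single libraries. In 25-week males (0) it was 1 with a pseudocount of 0.1, only the 25-week libraries or without those females, and 0 to 1 without single libraries. Age in WT females (3) gave 8 with median-of-ratios scaling, 6 with quantile normalization or only WT libraries, 7 without those females, and 0 to 6 without single libraries. Sex at 5 weeks (2) gave 2 to 5 without single libraries.

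Whether the replicate numbers pair the mice is not known. Same-numbered WT and Col6a2-/- libraries had r of -0.061 to 0.234 (median 0.104), with 8 of 16 pairs over 0.1. The highest r was 0.234 at 5 weeks and 0.118 at 25 weeks. Over all genes, a replicate block took the limma calls for genotype at 5 weeks from 3253 to 3731. It took those for age by sex from 440 to 211. The replicate block took the count in 5-week males from 0 to 1 and moved no other count of members. Depth limits Dlk1, Plagl1 and Mest at 25 weeks, whose coverage was below 3 in every library.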
